A study of Chlamydomonas reinhardtii with 28 samples.

Results

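The LHCBM genes encode the proteins of the major trimeric light-harvesting complex of photosystem II (LHCII) in the green alga *Chlamydomonas reinhardtii*. The family was taken as the genes carrying the symbols LHCBM1 to LHCBM9 in the expression table, which gave 9 of its 17611 genes. All 9 were among the 14785 genes whose mean passed 1 FPKM in 1 or more strains and which were therefore tested. Transcript abundance was measured as FPKM (fragments per kilobase of transcript, scaled for sequencing depth), a level corrected for transcript length, so that the levels of different genes can be set side by side.

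The data were the basal transcriptomes of 7 laboratory wild-type strains, with 4 libraries each and 28 in all. CC-125 and CC-1690 are of mating type mt+, whereas CC-4532, CC-4533, CC-124, CC-1009 and CC-1691 are of mt-. CC-4532 is the strain whose genome served for mapping, and CC-4533 is the parent of an insertional mutant collection. No mutation or treatment was named, and the strain was the labelled difference between the cultures. Every culture was grown photoheterotrophically, in acetate medium under continuous light of 50-70 µmol photons on a shaker at 180 rpm, and was harvested in mid-logarithmic phase. By their names the libraries fall into set 2, with the 8 from CC-4533 and CC-125, and set 1, with the 20 from the other 5 strains.

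The summed FPKM of a library ranged from 480355 to 1319895, and between 16121 and 16594 genes were above 0. Read counts were not analysed here, so absolute depth is unknown. The median of the lowest values, which falls as depth rises, was 0.05-0.08 FPKM in set 2 and 0.07-0.15 FPKM in set 1. The mating-type gene MID1 was at 3.12-11.4 FPKM in the 20 mt- libraries and at 0-0.08 FPKM in the 8 mt+ libraries, as labelled. Replicate 3 of CC-4533 stood apart: its mean correlation with the libraries of its own strain was 0.936. Replicates 1, 2 and 4 of CC-4533 were at 0.969-0.976, also below the 0.985-0.995 of the 6 other strains. Where removal of replicate 3 changed a call or a ratio named for that strain, both values are given. Each library holds the RNA of a whole culture, so more transcript per cell and more cells with the transcript cannot be told apart.

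LHCII trimers bind chlorophyll a, chlorophyll b and carotenoids and pass absorbed light energy to photosystem II. In state transitions, phosphorylated LHCII moves to photosystem I, and in excess light the same proteins take part in dissipating energy as heat. The 9 LHCBM proteins are closely similar and are sorted by sequence into 4 types: type I (LHCBM3, LHCBM4, LHCBM6, LHCBM8 and LHCBM9), type II (LHCBM5), type III (LHCBM2 and LHCBM7) and type IV (LHCBM1). Mutant studies tied LHCBM1 to heat dissipation and LHCBM2 and LHCBM7 to state transitions. LHCBM5 was found in the mobile LHCII attached to photosystem I, and LHCBM9 is known for its induction under nutrient starvation.

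By their identifiers, LHCBM1 (Cre01.g066917) lies on chromosome 1, LHCBM5 (Cre03.g156900) on chromosome 3 and LHCBM3 (Cre04.g232104) on chromosome 4. LHCBM2 (Cre12.g548400) and LHCBM7 (Cre12.g548950) share chromosome 12, with 11 genes between them in the RefSeq gene order of assembly v5.5. Chromosome 6 carries the other 4: LHCBM4 (Cre06.g283950), LHCBM9 (Cre06.g284200), LHCBM8 (Cre06.g284250) and LHCBM6 (Cre06.g285250). LHCBM8 and LHCBM9 are direct neighbours in that order, with 0 genes between them, and 5 genes separate LHCBM4 from LHCBM9 and 21 separate LHCBM8 from LHCBM6. Reads matching several places were assigned by the authors to 1 random location. The split between near-identical copies, above all LHCBM2 with LHCBM7 and the type I genes of chromosome 6, is therefore uncertain. The authors' counting settings also turned on fractional counts. How this bears on the levels of such copies, and so on their order and shares, was not tested. Reads of every strain were mapped to the CC-4532 genome, and the study describes blocks of divergent haplotypes that differ between strains. How this bears on the split was not tested.

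The order of abundance within the family was almost the same in every library. In 24 of 28 libraries it ran LHCBM1, LHCBM7, LHCBM3, LHCBM2, LHCBM6, LHCBM4, LHCBM5, LHCBM8 and LHCBM9. In 3 libraries (replicate 1 of CC-1009, replicate 1 of CC-1690 and replicate 2 of CC-1691) LHCBM5 stood above LHCBM4, and in replicate 4 of CC-1690 LHCBM7 stood above LHCBM1. LHCBM3, LHCBM2, LHCBM6, LHCBM8 and LHCBM9 therefore held places 3, 4, 5, 8 and 9 in all 28 libraries. The median level over the 28 libraries fell from 15406 FPKM for LHCBM1 and 12192 FPKM for LHCBM7 to 698 FPKM for LHCBM8 and 354 FPKM for LHCBM9.

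**Figure D1:**
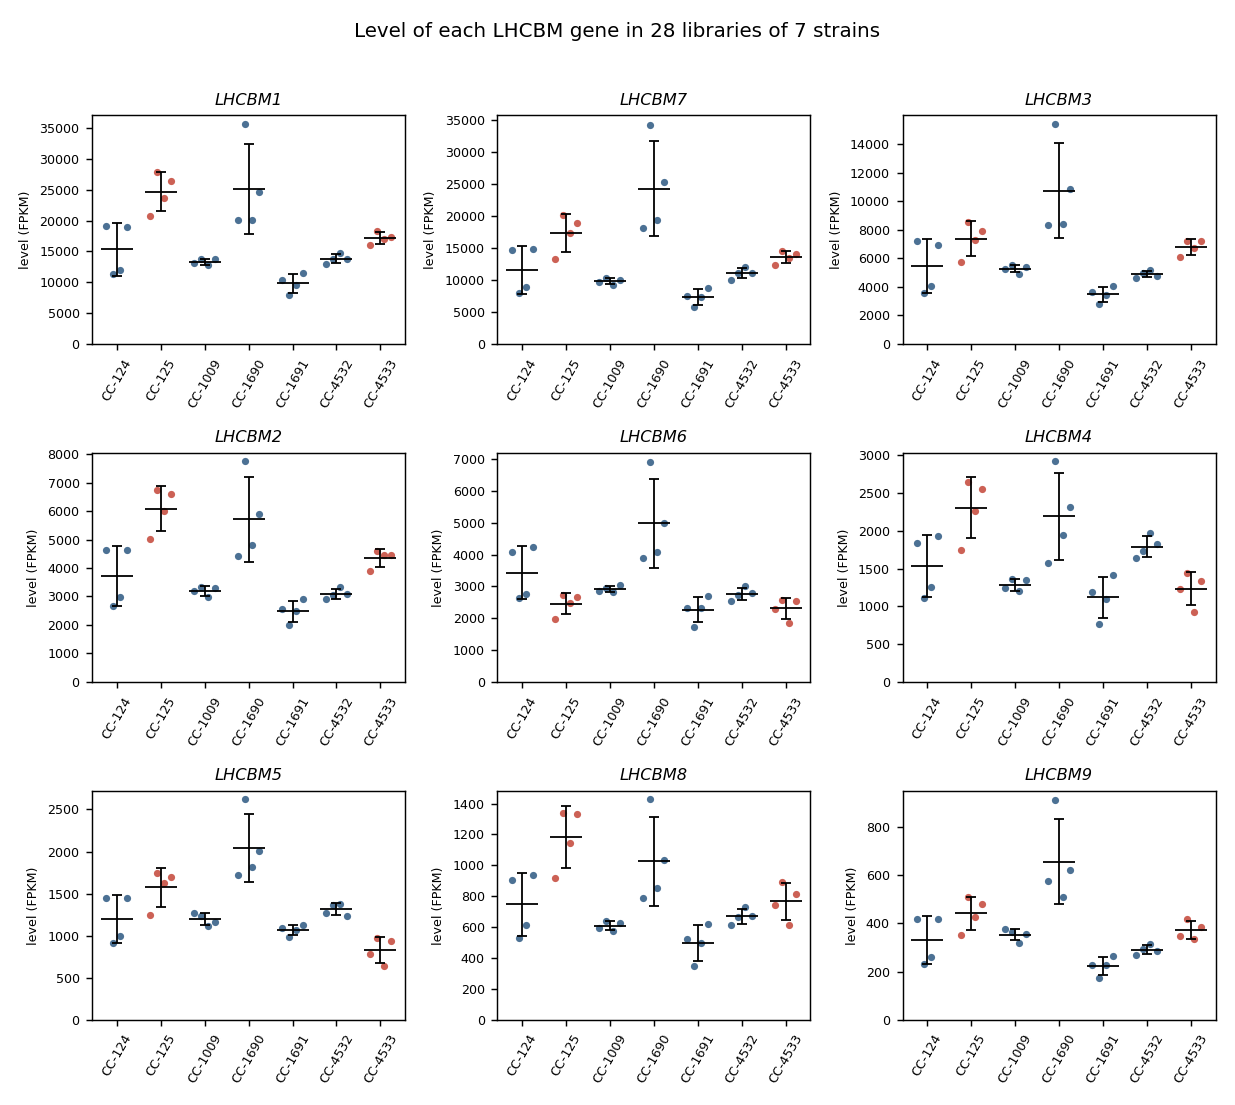
Level of each LHCBM gene in FPKM (vertical axis, from 0) in the 4 libraries of each strain (points, replicates 1 to 4 from left to right), with the strain mean (bar) and SD; panels follow the order of abundance, blue marks library set 1 and red library set 2. Replicate 2 of CC-1690 was the highest library for all 9 genes, and LHCBM6 was not raised in CC-125 as its 8 relatives were.

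To compare the make-up of the antenna transcripts between strains, each gene's share of the summed LHCBM FPKM was computed per library, since a share does not depend on how libraries are scaled. LHCBM1 and LHCBM7 together supplied 63.1% ± 2.02 of the sum (SD, n = 28), and with LHCBM3 the share came to 76.1% ± 2.25. By type, type III supplied 36.2% ± 1.77, type IV 35.4% ± 1.88, type I 25.5% ± 1.92 and type II 2.86% ± 0.654. The 5 type I genes together were lowest in CC-125, at 21.6% ± 0.401 (n = 4), and highest in CC-1009, at 27.5% ± 0.0845.

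Shares were far tighter than levels. Over the 63 combinations of gene and strain, the coefficient of variation among the 4 replicates had a median of 15.4% for the level and 2.65% for the share. CC-124 shows this most plainly: its LHCBM levels varied by 24-35% between replicates, while their shares varied by 1.52-5.97%.

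**Figure D2:**
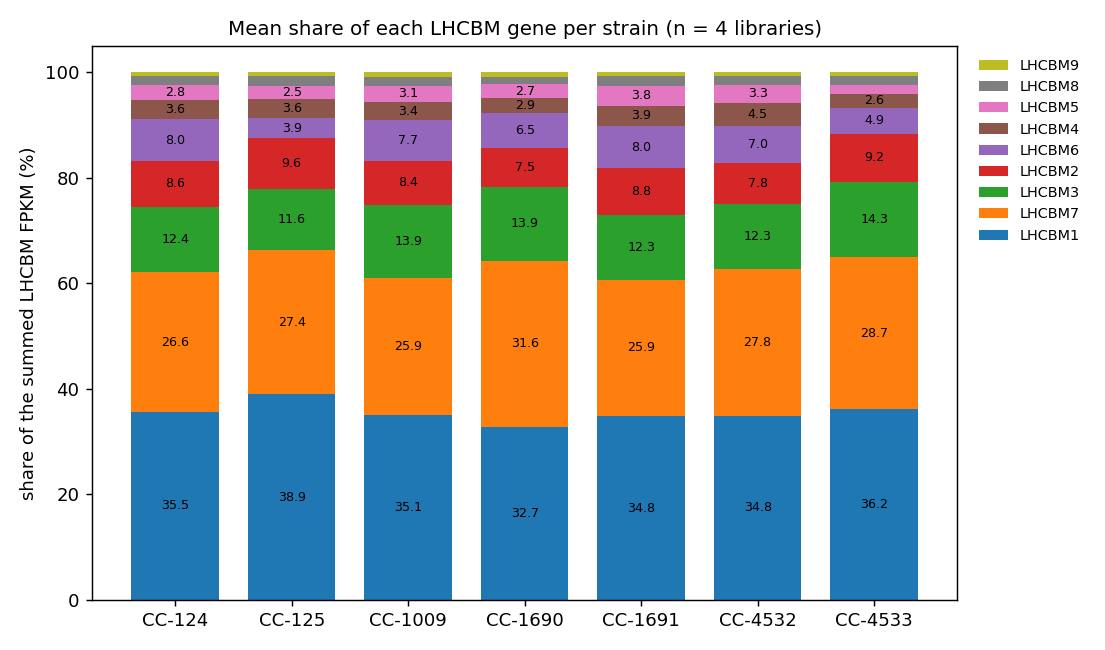
Mean share of each LHCBM gene in the summed LHCBM FPKM (vertical axis, percent) in each of the 7 strains (n = 4 libraries); printed values are mean shares. LHCBM1 and LHCBM7 filled 60.7% to 66.3% of every column, and the LHCBM6 band was narrowest in CC-125 (3.88%) and CC-4533 (4.88%).

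All 9 shares differed across strains by limma's moderated F-test, fitted to every gene relative to the LHCBM sum. That count carries little weight, because 99.4% of the 14785 genes tested passed the same test. The size of F separated the members: it was 66.0 for LHCBM6 (adjusted p = 1.06e-15), 29.4 for LHCBM5 and 18.1 for LHCBM4, and between 5.09 (LHCBM9) and 10.6 (LHCBM2) for the other 6. The spread of strain means, taken from the same shares, gave the same 3 genes. The highest mean share was 2.18 times the lowest for LHCBM5, 2.07 times for LHCBM6 and 1.74 times for LHCBM4. For LHCBM1, LHCBM7, LHCBM3 and LHCBM2 that ratio was 1.19, 1.22, 1.23 and 1.28. LHCBM1 and LHCBM7 make up most of the sum, which narrows their share ratios. In level the order was another. The SD of log2 FPKM over 28 libraries was smallest for LHCBM6 (0.4299), LHCBM5 (0.4349) and LHCBM4 (0.4675) and largest for LHCBM7 (0.5797).

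LHCBM6, a type I gene, was the member that broke most clearly from the rest. In CC-125 its share of the family sum was 3.86%, 3.77%, 3.99% and 3.89% in replicates 1 to 4. In CC-4533 the share was 5.22%, 5.07%, 4.04% and 5.18%. These 8 libraries lay below all 20 libraries of the other 5 strains, the lowest of which stood at 6.42%.

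In CC-124 the LHCBM6 share was 7.51%, 8.58%, 8.19% and 7.78%. In CC-1009 it was 7.64%, 7.46%, 7.86% and 7.78%, and in CC-1691 it was 7.84%, 7.69%, 8.30% and 8.13%. The libraries of these 3 strains overlapped. CC-4532 lay somewhat lower, at 6.90%, 6.85%, 7.05% and 7.07%, and CC-1690 lower again, at 6.53%, 6.42%, 6.61% and 6.45%, with no overlap between those strains.

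Against the mean of the other 6 strains, the LHCBM6 share differed by -0.83 ± 0.05 on the log2 scale in CC-125 (SE, limma adjusted p = 1.35e-14) and by -0.46 ± 0.05 in CC-4533 (adjusted p = 1.46e-08). Without replicate 3 of CC-4533 the latter difference was -0.37 and still passed the test. CC-124 (0.39 ± 0.05), CC-1691 (0.39 ± 0.05), CC-1009 (0.32 ± 0.05) and CC-4532 (0.15 ± 0.05) had higher shares, although the call in CC-4532 was lost without its replicate 1, 3 or 4 (0.16, 0.15 and 0.15) and with the log2 mean of the 9 genes as the reference (0.089). Ordered by mean share the strains ran CC-124, CC-1691, CC-1009, CC-4532, CC-1690, CC-4533 and CC-125. Among neighbours in this order, CC-1690 differed from CC-4533 (adjusted p = 5.15e-06) and CC-4533 from CC-125 (adjusted p = 0.000356), while the 4 neighbouring pairs above them did not pass the test (adjusted p of 0.184 to 0.974).

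Both strains with a low LHCBM6 share belong to library set 2, and the 8 libraries of that set were also the 8 with the highest LHCBM2 share (8.91-9.81%, against 7.18-8.89% in set 1). Strain and library set cannot be told apart for CC-125 and CC-4533. Within set 1 alone, LHCBM6 in CC-124 and CC-1691 stayed higher than in the other 4 strains, the difference in CC-1009 no longer passed the test (0.066), and that in CC-4532 changed sign (-0.11). As a ratio of levels, LHCBM2 to LHCBM6 was 2.47 ± 0.0478 in CC-125 (n = 4) and 1.91 ± 0.329 in CC-4533, or 1.75 ± 0.0382 (n = 3) without replicate 3, against strain means of 1.08 (CC-124) to 1.15 (CC-1690) in set 1.

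**Figure D3:**
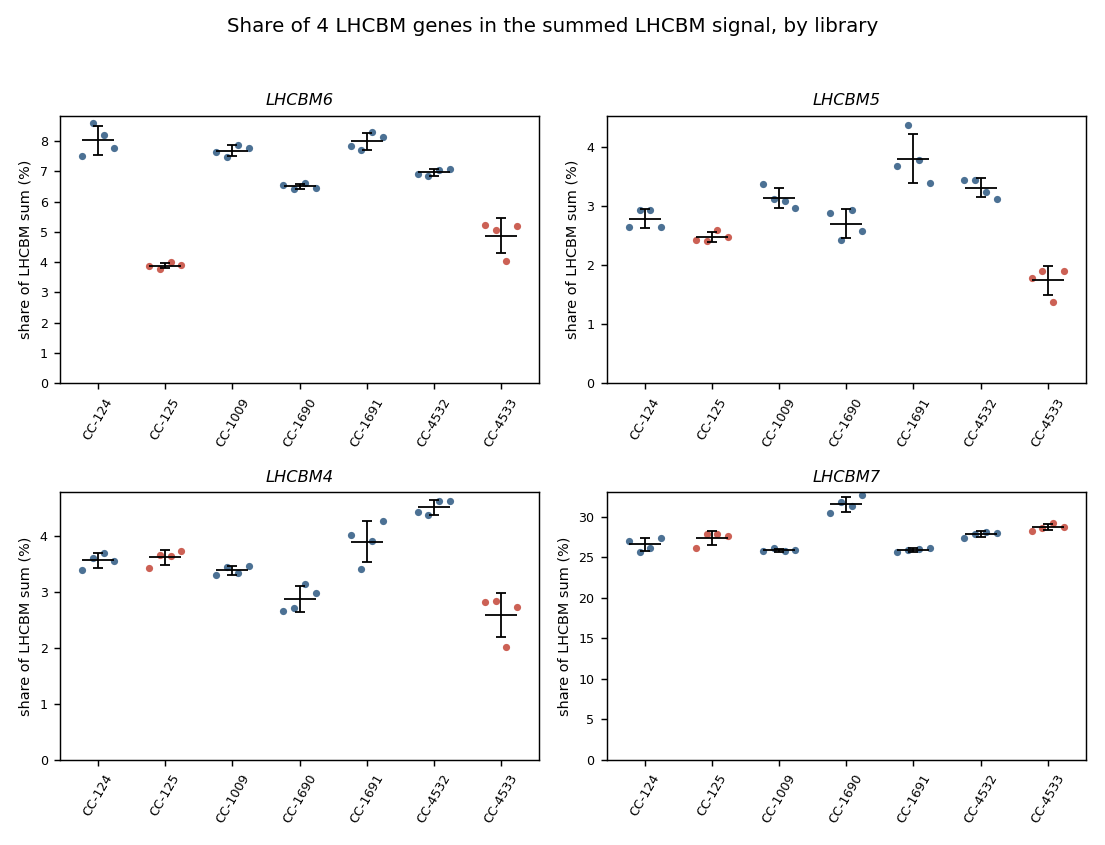
Share of LHCBM6, LHCBM5, LHCBM4 and LHCBM7 in the summed LHCBM FPKM (vertical axes, percent, from 0) in the 4 libraries of each strain (points, replicates 1 to 4 from left to right), with the strain mean (bar) and SD; blue marks library set 1 and red library set 2. The LHCBM6 share stayed at or below 5.22% in the 8 red libraries, and the LHCBM5 share of CC-4533 (1.38-1.91%) lay below all other libraries.

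LHCBM5, the type II gene, was lowest in CC-4533. Its share there was 1.78%, 1.91%, 1.38% and 1.91%, and the lowest of the 24 other libraries stood at 2.41%. The difference from the other 6 strains was -0.80 ± 0.07 (log2 share, adjusted p = 4.65e-11), and -0.69 without replicate 3.

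At the other end, the LHCBM5 share of CC-1691 was 3.68%, 4.38%, 3.78% and 3.39%, higher than in the other strains by 0.52 ± 0.07 (adjusted p = 2.22e-07). Its replicate 4 overlapped with CC-4532, where the shares were 3.44%, 3.45%, 3.24% and 3.12% (0.30 ± 0.07, adjusted p = 0.00142). Within set 1 the difference in CC-4532 was 0.11 and did not pass (adjusted p = 0.269). In order of mean share CC-1691 was followed by CC-4532, CC-1009, CC-124, CC-1690, CC-125 and CC-4533, and of these neighbours CC-125 and CC-4533 differed (adjusted p = 3.88e-05), whereas the others did not pass the test. Smaller differences were called in CC-1009 (0.21 ± 0.07) and CC-125 (-0.19 ± 0.07). The former was lost without replicate 1 or 2 of CC-1009 (0.17 and 0.21) and within set 1 (0.011), and the latter without replicate 1, 2 or 4 of CC-125 (-0.18, -0.18 and -0.19). Both were also lost relative to the log2 mean of the 9 genes (0.13 and -0.10) or to the sum without LHCBM1 and LHCBM7 (0.11 and -0.043).

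LHCBM4, a type I gene of chromosome 6, was highest in CC-4532. Its share there was 4.43%, 4.37%, 4.62% and 4.63%, above all 24 other libraries, of which the highest stood at 4.27%. The difference was 0.46 ± 0.07 (log2 share, adjusted p = 2.04e-06). CC-1691 (4.02%, 3.40%, 3.92% and 4.27%) was next and differed from CC-4532 (adjusted p = 0.0489). Its own difference from the 6 other strains, 0.21 ± 0.07, no longer passed within set 1 (0.14), with the log2 mean of the 9 genes as the reference (0.095) or with the sum without LHCBM1 and LHCBM7 (0.099). The LHCBM4 share was lowest in CC-4533, at 2.81%, 2.83%, 2.01% and 2.72% (-0.49 ± 0.07, adjusted p = 4.82e-07), and the difference was -0.37 without replicate 3. CC-1690, at 2.65%, 2.71%, 3.14% and 2.98%, overlapped with CC-4533 (-0.30 ± 0.07, adjusted p = 0.000176).

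LHCBM7, the more abundant type III gene, carried a larger share in CC-1690 than elsewhere. The CC-1690 libraries stood at 30.4%, 31.8%, 31.4% and 32.7%, and the highest of the other 24 at 29.2%. The difference was modest in size, 0.22 ± 0.03 (log2 share, adjusted p = 5.25e-07). The 6 other strains ranged from 25.9% ± 0.184 in CC-1009 to 28.7% ± 0.395 in CC-4533, and CC-1009 and CC-1691 were called lower, each by -0.11 ± 0.03. LHCBM1 and LHCBM7 were thus nearly level in CC-1690, with a ratio of 1.04 ± 0.0579 (n = 4), whereas the ratio was between 1.25 ± 0.0241 (CC-4532) and 1.42 ± 0.0881 (CC-125) in the other strains. LHCBM2, the second type III gene, moved the other way in CC-1690: its share there was 7.49% ± 0.245, the lowest of the 7 strains (-0.22 ± 0.04, adjusted p = 1.96e-05). The LHCBM2 share was highest in CC-125 (9.60% ± 0.203, 0.20 ± 0.04), higher in CC-4533 (0.12 ± 0.04, but 0.10 and not called without replicate 3) and lower in CC-4532 (-0.15 ± 0.04). The CC-4532 difference was -0.088 within set 1 and did not pass (adjusted p = 0.190). LHCBM7 to LHCBM2 was 4.22 ± 0.178 in CC-1690 and between 2.85 ± 0.136 (CC-125) and 3.57 ± 0.0593 (CC-4532) elsewhere, with the reservation that reads common to both copies were placed at random.

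LHCBM1, the most abundant member, had its largest share in CC-125, where the libraries stood at 40.6%, 38.6%, 38.0% and 38.5%. The highest of the 24 other libraries was at 37.0%, so that CC-125 did not overlap with them (0.16 ± 0.03, adjusted p = 6.79e-05). In CC-1690 LHCBM1 was lowest, at 33.8%, 33.0%, 32.4% and 31.6%, below all 24 others (-0.13 ± 0.03, adjusted p = 0.000417). The latter call did not hold when the log2 mean of the 9 genes replaced their sum as the reference (-0.075, adjusted p = 0.103). The 4 other strains of set 1 had mean shares between 34.8% and 35.5%, and neighbours among them differed by less than their spread.

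LHCBM3, the most abundant type I gene, ranged from 11.6% ± 0.242 of the sum in CC-125 to 14.3% ± 0.379 in CC-4533. Its share was lower in CC-125 (-0.18 ± 0.04) and higher in CC-4533 (0.17 ± 0.04), CC-1690 (0.13 ± 0.04) and CC-1009 (0.12 ± 0.04). The call in CC-1009 was lost without replicate 1 or 2 of that strain, at 0.12 each time. The calls in CC-125 and CC-1009 depended on the reference: relative to the log2 mean of the 9 genes they were -0.098 (adjusted p = 0.0776) and 0.042, and relative to the sum without LHCBM1 and LHCBM7 they were -0.037 (adjusted p = 0.468) and 0.022, and none of these passed.

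The 2 rarest members are neighbours on chromosome 6 and did not keep step. LHCBM8 had its highest share in CC-125 (1.86% ± 0.063, 0.21 ± 0.07 on the log2 scale) and its lowest in CC-1690 (1.34% ± 0.0282, -0.34 ± 0.07, adjusted p = 1.99e-05). LHCBM9, known from starvation, was highest in CC-1009 (0.929% ± 0.0483, 0.27 ± 0.07, adjusted p = 0.00139) and lowest in CC-125 (0.696% ± 0.00715, -0.21 ± 0.07), where all 4 libraries lay below the other 24. That low LHCBM9 share depended on the reference, being -0.13 relative to the log2 mean of the 9 genes (adjusted p = 0.0989) and -0.064 relative to the sum without LHCBM1 and LHCBM7 (adjusted p = 0.413). The ratio of LHCBM8 to LHCBM9 was 2.67 ± 0.0789 in CC-125 and 1.56 ± 0.142 in CC-1690 (n = 4 each). Reads shared between these copies, and with LHCBM4 and LHCBM6, were placed at random.

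Counted over the family, 32 of the 63 differences in share passed the test at an adjusted p below 0.05, 18 of them higher and 14 lower. In CC-125, 3 shares were higher and 4 lower, against 8.17% of all genes higher and 61.2% lower relative to the LHCBM sum. In CC-4533, 2 were higher and 3 lower (background 16.1% and 25.7%), in CC-1690 2 and 4 (4.86% and 73.7%) and in CC-1691 3 and 1 (84.4% and 2.25%). CC-4532 had 3 higher and 1 lower (30.8% and 10.3%), CC-1009 4 and 1 (35.9% and 7.87%), and CC-124 had 1 higher, LHCBM6, and 0 lower (24.5% and 12.3%), with 0 lower also at an unadjusted p below 0.05. In the orders of strains by mean share, 9 of 54 neighbouring pairs differed, and by mean level 6 of 54. Over all genes and all pairs of strains, 56.0% of share comparisons and 54.0% of level comparisons passed. Neighbours in an order are by construction the closest strains, so these percentages are not a like measure for them. The background moves with the LHCBM sum itself, so it does not serve to rank the strains, and because the shares of a library add up to a fixed total, a fall of one member raises the others. With the log2 mean of the 9 genes as the reference, 24 of the 32 differences still passed, among them those for LHCBM6 in CC-125 and CC-4533, LHCBM5 and LHCBM4 in CC-4533, LHCBM4 in CC-4532, and LHCBM7 and LHCBM8 in CC-1690.

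**Figure D4:**
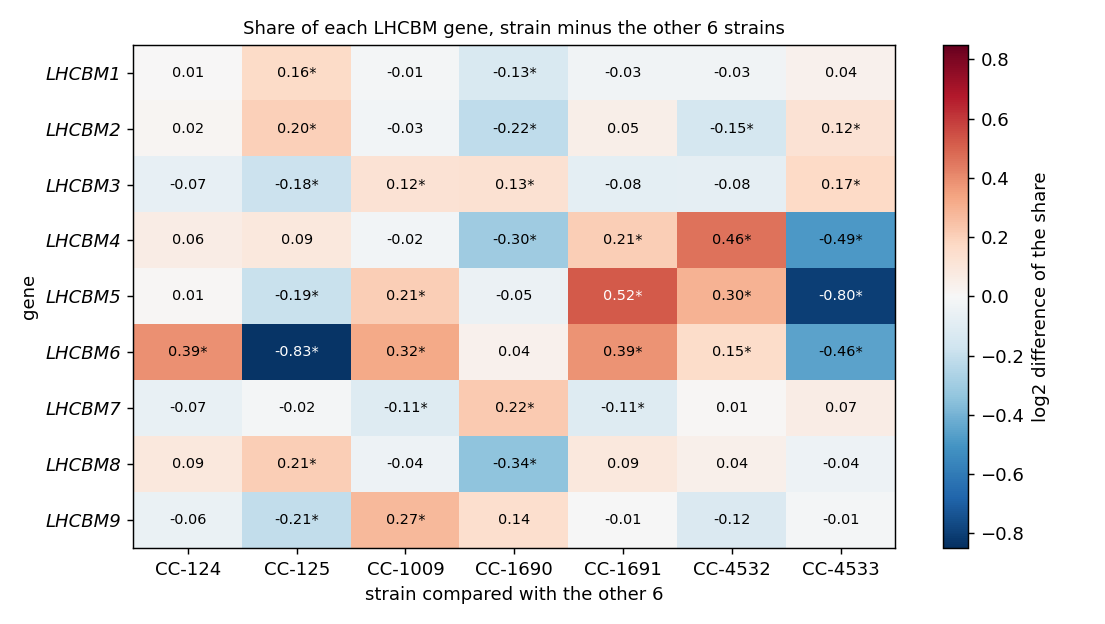
Difference of each LHCBM share between one strain and the mean of the other 6, on the log2 scale (colour and printed value; rows are genes, columns strains); an asterisk marks an adjusted p below 0.05 by limma. The strongest cells were LHCBM6 in CC-125 (-0.83), LHCBM5 in CC-4533 (-0.80) and LHCBM5 in CC-1691 (0.52).

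The summed level of the family also differed between strains. In CC-1690 the sum of the 9 genes was 59532, 107889, 61939 and 77677 FPKM in replicates 1 to 4, and in CC-125 it was 51054, 72409, 62136 and 68538 FPKM. In CC-1691 it was 29527, 22526, 28070 and 33309 FPKM, below every library of the first 2 strains. The mean of CC-1690, 76759 ± 22258 FPKM, was 2.71 times that of CC-1691, 28358 ± 4471 FPKM. Replicates differed widely as well, since CC-124 stood at 54500, 30848, 33819 and 54446 FPKM.

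As a percentage of all FPKM in the library, the family took 7.82% ± 0.330 in CC-1690, 7.75% ± 0.554 in CC-125, 7.14% ± 0.633 in CC-124, 6.75% ± 0.287 in CC-4532, 6.31% ± 0.174 in CC-1009, 5.50% ± 0.680 in CC-1691 and 5.47% ± 0.377 in CC-4533. On this scale the strains spanned 1.43-fold, and CC-4533 joined CC-1691 at the low end. Without replicate 3, CC-4533 was at 5.65% ± 0.0732 (n = 3), above the mean of CC-1691. The summed FPKM of the CC-1690 libraries (794084-1319895) was itself higher than that of CC-1691 (489053-532680), and its part in the difference between the sums was not tested.

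Relative to the LHCI antenna of photosystem I, whose 9 genes are LHCA1 to LHCA9, the LHCBM sum was 2.72 ± 0.0473 times the LHCA sum in CC-125, 2.48 ± 0.173 in CC-1690 and 2.46 ± 0.0613 in CC-124. It was 2.09 ± 0.0221 in CC-1009, 1.97 ± 0.0515 in CC-1691 and 1.97 ± 0.0349 in CC-4532. In CC-4533 it was 2.02 ± 0.0852, or 1.98 ± 0.0179 (n = 3) without replicate 3. The lowest library of the first 3 strains stood at 2.26 and the highest of the other 4, replicate 3 of CC-4533, at 2.14. These did not overlap, but the strains were grouped here by this same ratio.

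By gene, levels differed across strains for all 9 members by the F-test, which 95.2% of all genes passed. In CC-1690 all 9 members were higher than in the other 6 strains, where 34.2% of all genes were called higher. The largest difference there was that of LHCBM7, which stood at 18117, 34335, 19422 and 25363 FPKM (1.06 ± 0.15 on the log2 scale). LHCBM9 was at 577, 913, 511 and 623 FPKM (0.98 ± 0.14). It was the only member whose 4 CC-1690 libraries all lay above the other 24, by a narrow margin, since the highest of those was at 509.8 FPKM. How many of all genes separate in this way was not counted. The smallest difference was that of LHCBM8 (0.49 ± 0.15), which no longer passed the test without replicate 2 of CC-1690 (0.32, adjusted p = 0.0673).

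In CC-125, 8 of 9 members were higher (background 30.4%), led by LHCBM8 (0.76 ± 0.15), LHCBM2 (0.75 ± 0.13) and LHCBM1 (0.71 ± 0.14). LHCBM6 was the exception, at 1972, 2732, 2479 and 2668 FPKM, which gave -0.28 ± 0.14 (adjusted p = 0.0809). Without replicate 2 or replicate 4 of this strain the count was 5, the calls of LHCBM3 (0.29 and 0.33), LHCBM5 (0.31 and 0.32) and LHCBM9 (0.27 and 0.30) being lost. The LHCBM3 call was the weakest (0.37 ± 0.15, adjusted p = 0.0414): it was lost in 7 of 28 cases when 1 library was left out, namely replicates 2, 3 and 4 of CC-125, 3 of CC-1009, 2 of CC-1691, 1 of CC-4532 and 1 of CC-4533. LHCBM9 was also lost without replicate 3 of CC-125 (0.35). In CC-1691, 8 of 9 members were lower (background 23.6%) and 0 higher (23.4%), from -0.91 ± 0.15 for LHCBM7 to -0.42 ± 0.14 for LHCBM6, and the latter was lost without replicate 2 of that strain (-0.30). LHCBM5 was the member that was not called in CC-1691, at 1086, 987, 1062 and 1130 FPKM (-0.28 ± 0.12, adjusted p = 0.0557).

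CC-4533 had 3 members lower (background 30.3%). LHCBM5 stood at 780, 971, 637 and 938 FPKM (-0.72 ± 0.12), overlapping with CC-124. LHCBM4 (-0.41 ± 0.15) and LHCBM6 (-0.38 ± 0.14) were called through replicate 3, without which both were at -0.28 and did not pass. CC-1009 had LHCBM2 (-0.32 ± 0.13) and LHCBM7 (-0.41 ± 0.15) lower (background 24.5%), and CC-4532 had LHCBM2 (-0.37 ± 0.13) and LHCBM9 (-0.35 ± 0.14) lower (background 27.4%). These 4 calls lay close to the threshold. Leaving out 1 library at a time, the count ran from 0 to 5 in CC-1009, being 0 without any single replicate of CC-1009 and 5 without replicate 2 of CC-1691, and LHCBM2 lost its call there in 17 of 28 cases. In CC-4532 the count ran from 0 to 3, being 0 without replicate 1 or 2 and 1 without replicate 4 of that strain. No member was called in CC-124 by limma, and 0 had an unadjusted p below 0.05, whereas 25.6% of all genes were higher there and 27.9% lower.

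These directions depended on scaling, unlike the shares. With the deposited FPKMs the family gave 17 higher and 15 lower calls. Quantile normalization gives genes of equal rank the same value in every library, so it can remove level differences of very abundant genes. Under quantile normalization CC-1690 had 3 members higher and 1 lower, CC-125 3 and 1, CC-1691 2 and 2, CC-1009 2 and 1, CC-124 and CC-4532 4 higher each, and CC-4533 6 lower. With libraries set to equal summed FPKM, which moved the median of all genes in CC-1690 by -0.53, CC-1690 had 6 higher, CC-125 5 higher and 1 lower, CC-1691 1 higher and 6 lower, CC-1009 2 and 1, CC-124 4 higher, CC-4532 3 higher, and CC-4533 9 lower. The share of all genes called was not computed under either of these scalings, so these counts cannot be set against a background. Scaling by median ratios left the counts of all 7 strains as they were, but the deposited libraries were already nearly level on that scale. Their median log2 ratio to the gene mean lay between -0.0181 (replicate 2 of CC-124) and 0.0282 (replicate 2 of CC-1690). This scaling therefore had little to change and is no check on the counts.

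For pairs of strains, the limit was a difference over 2-fold at an adjusted p below 0.01 with more than 1 FPKM, close to the criteria for DEGs in the study's methods. Over the 9 genes and 21 pairs, 21 combinations passed, or 11.1%, against 17.4% over all genes. CC-1690 with CC-1691 gave 7 of them, from LHCBM8 at 2.05-fold to LHCBM7 at 3.23-fold higher in CC-1690, and 22.2% of all genes passed there. CC-125 with CC-1691 gave 6 (background 17.7%), CC-1690 with CC-4532 gave 3 (LHCBM3, LHCBM7 and LHCBM9, background 22.5%) and CC-1690 with CC-4533 gave 2 (LHCBM5 and LHCBM6, background 21.8%). CC-124 with CC-1690 gave 2 (LHCBM7 and LHCBM9, background 15.0%) and CC-1009 with CC-1690 gave 1 (LHCBM7, background 22.6%). Each of these 6 pairs includes CC-1690 or CC-1691. No member passed in the other 15 pairs, where the background was 6.02% (CC-1009 with CC-1691), 7.43% (CC-1691 with CC-4532), 9.03% (CC-1009 with CC-4532), 19.8% (CC-124 with CC-1009), 21.9% (CC-1009 with CC-4533), 25.2% (CC-125 with CC-1690) and between 11.7% and 23.7% in the remaining 9. In those 15 pairs 69 combinations had an unadjusted p below 0.05 by limma, but 0 of them were over 2-fold. Of the 21 combinations, 11 passed whichever single library was left out and 10 did not. LHCBM6 in CC-1690 with CC-4533 was 2.11-fold, and 1.97-fold without replicate 3 of CC-4533 or 1.87-fold without replicate 2 of CC-1690. Both combinations of CC-124 with CC-1690 fell below 2-fold without replicate 2 or 3 of CC-124 or replicate 2 of CC-1690 (1.78-fold to 1.96-fold), and the 3 of CC-1690 with CC-4532 did so without replicate 2 of CC-1690 (1.86-fold to 1.96-fold). LHCBM6 and LHCBM8 in CC-1690 with CC-1691 fell below it without replicate 2 of either strain (1.82-fold to 1.98-fold). In CC-125 with CC-1691, LHCBM3 (1.97-fold) and LHCBM4 (1.85-fold) were lost without replicate 2 of CC-1691, and LHCBM4 (1.98-fold) also without replicate 2 of CC-125. The total was 13 without replicate 2 of CC-1690, 8 with equal summed FPKM, 5 under quantile normalization and 0 by limma's treat test, which asks for a difference beyond 2-fold itself.

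Over the 28 libraries, the log2 levels of most members ran together. The 36 correlations between members had a median of 0.825, from 0.50 for LHCBM2 with LHCBM6 to 0.989 for LHCBM1 with LHCBM2. The 8 that involve LHCBM6 lay between 0.50 and 0.766, and the 28 others had a median of 0.889. Among the latter, those of LHCBM5 all lay below that median, from 0.596 with LHCBM2 to 0.852 with LHCBM4. These are descriptions across libraries that share strains and scaling.

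The genes outside the family whose log2 levels were most like a member's over the 28 libraries differed between the members. For LHCBM7 and LHCBM1 the closest was PSBX1, a small subunit of photosystem II, with Pearson's r of 0.979 and 0.956. For LHCBM2 it was the ferredoxin gene FDX1 (0.947). For LHCBM3 it was PSAF1 (0.987) and for LHCBM9 PSAD1 (0.976), both subunits of photosystem I, and for LHCBM8 it was LHCB4 (0.932), a minor antenna protein of photosystem II. For the other 3 members the closest genes have no definition in the table: Cre07.g329650 (0.934) for LHCBM6, Cre05.g800556 (0.941) for LHCBM5 and Cre09.g394954 (0.905) for LHCBM4. Without replicate 3 of CC-4533 the closest gene became Cre05.g238343 (0.943) for LHCBM5 and OMT1 (0.909) for LHCBM4, and it was unchanged for the 7 other members. Taken relative to the LHCBM sum, Cre16.g655650 (0.957) was closest to LHCBM6, Cre06.g308950 (0.972) to LHCBM5 and Cre06.g309450 (0.874) to LHCBM4, and without that library the closest became Cre13.g604050 (0.965) for LHCBM5 and ROC40 (0.882) for LHCBM4.

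Genes that act with LHCII were set beside the family from lists. The minor antenna of photosystem II was higher in CC-1690 for 3 of 3 genes with a median log2 difference of 0.64 (background 34.2%, median of all genes 0.00). LHCB5, which encodes CP26, stood at 3766 ± 998 FPKM in the former and at 1517 ± 252 FPKM in CC-1691. LHCB4, which encodes CP29, was at 3448 ± 940 and 1814 ± 287 FPKM, while the rare LHCB7 was at 13.6 ± 0.813 and 8.61 ± 0.682 FPKM. In CC-1691 the minor antenna was lower for 2 of 3, the LHCI antenna for 9 of 9 and the photosystem II subunits for 6 of 7 (background 23.6%).

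The LHCI antenna was higher in CC-1690 for 9 of 9 genes (median 0.69) and the photosystem II subunits for 6 of 7 (median 0.66). LHCA8 and LHCA7 had the largest F of the LHCI list, and LHCA8 was at 3292 ± 918 FPKM in CC-1690, 3083 ± 510 in CC-125 and 1379 ± 206 in CC-1691. As for the LHCBM genes, these directions turned with scaling, and under quantile normalization CC-1690 had 0 LHCI genes higher and 2 lower, and 0 photosystem II genes higher and 4 lower. No share over all genes was computed under that normalization.

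The 5 genes for import and membrane insertion of LHCII went the other way in CC-1690. LHC proteins are guided through the chloroplast by a signal recognition particle (SRP43 and SRP54L) and its receptor FTSY1 and are inserted into the thylakoid by ALB3 proteins (ALB3A and ALB3B). In CC-1690, 5 of 5 were lower (median -0.54, background 35.3%), and the count was 5 under each of the 3 other scalings and without replicate 2 of CC-1690. Equal summed FPKM lowers all genes of CC-1690 and median ratios had little to change, so neither is a check on this count. No share over all genes was computed under these scalings. SRP43 was at 8.96 ± 1.71 FPKM in CC-1690, against strain means of 11.4 to 18.5 FPKM in the others (-0.81 ± 0.11).

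In CC-4532, 5 of 5 of these genes were higher (median 0.61, background 26.6%). The count was the same under each scaling, but equal summed FPKM raises all genes of CC-4532 and median ratios had little to change. FTSY1 was at 23.7 ± 1.34 FPKM in CC-4532 and at 6.46 ± 2.19 FPKM in CC-4533. In CC-4533, 4 of 5 were lower (median -0.43, background 30.3%), and the count was 4 without replicate 3. ALB3B had the largest F of this list and was lowest in CC-124, at 43.6 ± 2.31 FPKM, against 88.6 ± 1.50 FPKM in CC-125.

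**Figure D5:**
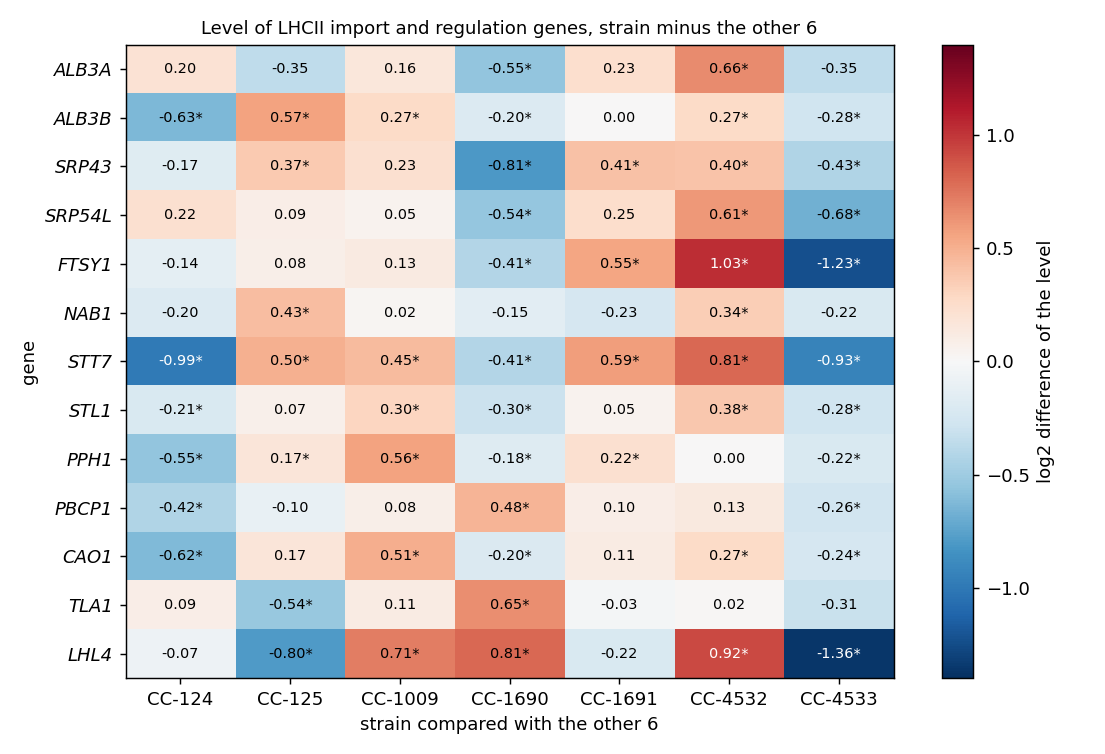
Difference in level between one strain and the mean of the other 6, on the log2 scale (colour and printed value), for 5 genes of LHCII import and insertion (ALB3A to FTSY1) and 8 genes of LHCII regulation and chlorophyll b synthesis (NAB1 to LHL4); columns are strains and an asterisk marks an adjusted p below 0.05 by limma. All 5 import genes were lower in CC-1690 and higher in CC-4532.

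Of the 8 genes of LHCII regulation and chlorophyll b synthesis, 6 were lower in CC-4533 (background 30.3%) and 5 were lower in CC-124 (27.9%), while 5 were higher in CC-1009 (25.4%) and 5 in CC-4532 (26.6%). The CC-4533 count was 4 without replicate 3. STT7, the kinase that phosphorylates LHCII in state transitions, had the largest F: it stood at 22.2 ± 2.59 FPKM in CC-124 and 23.3 ± 5.66 FPKM in CC-4533, and at 64.7 ± 5.83 FPKM in CC-4532. PPH1, a phosphatase that reverses this step, ranged from 13.9 ± 1.46 FPKM in CC-124 to 26.98 ± 0.687 FPKM in CC-1009. NAB1, an RNA-binding protein that represses translation of LHCBM mRNAs and is best known for LHCBM6, was higher in CC-125 (337 ± 36.2 FPKM, 0.43 ± 0.10) and CC-4532 (319 ± 25.1 FPKM, 0.34 ± 0.10) than in the other strains, and was at 229 ± 13.0 FPKM in CC-4533 (-0.22 ± 0.10, not called).

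The LHCSR proteins are relatives of LHCII that act in heat dissipation under excess light. LHCSR3A and LHCSR3B ran in the same order of strains, but LHCSR1 ran in another. LHCSR1 was at 49.9 ± 5.9 FPKM in CC-4532, 27.5 ± 8.0 in CC-125, 22.7 ± 5.2 in CC-1690 and 21.3 ± 5.4 in CC-124. It was at 14.5 ± 1.8 FPKM in CC-1009, 3.7 ± 0.42 in CC-1691 and 0.64 ± 0.29 in CC-4533. LHCSR3A stood at 198 ± 57.3 FPKM in CC-1690 and at 142 ± 11.4 FPKM in CC-1009, at 57.7 ± 8.89 FPKM in CC-4532 and at 50.4 ± 12.3 FPKM in CC-1691, but near 0 in CC-124 (0.953 ± 0.350 FPKM), CC-125 (1.16 ± 0.516 FPKM) and CC-4533 (0.0575 ± 0.0222 FPKM). The LHCBM1 share was 38.9% ± 1.16 in CC-125, 36.2% ± 0.801 in CC-4533 and 35.5% ± 0.758 in CC-124, the 3 highest of the 7 strain means. It was 35.1% ± 0.329 in CC-1009 and 32.7% ± 0.918 in CC-1690, where LHCSR3A was high, and 34.8% ± 0.210 in CC-4532 and 34.8% ± 0.529 in CC-1691. Libraries of CC-124 and CC-1009 overlapped in LHCBM1 share (adjusted p = 0.775), and the relation between both measures over the strains was not tested.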

How the data were processed

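In all, 4 libraries per strain were analysed for 7 strains. Per the study's methods, reads of 50 nt were mapped by the authors with STAR to the CC-4532 v6.1 genome. For each multimapping read 1 random location was kept. Reads were assigned strand-specifically with featureCounts, with multimapping reads counted and fractional counting turned on. Counts were turned with DESeq2 into the deposited FPKM values, and versions are not given in the sources used here. The 4 cultures of CC-4533, and those of CC-125, were started together and those of the other strains in 2 batches. The sources used here do not name the members of these batches, so no batch term was fitted. P-values rest on the spread between replicate cultures, pooled over the 7 strains and moderated over the genes tested. They do not measure the spread of a strain's own 4 cultures. A second deposited table of strain means was not used.

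Levels were log2(FPKM + 0.1), so fold changes are on that scale, and shares were the same values minus log2 of the LHCBM sum. Both were fitted with limma 3.58.1 (R 4.3.3) on all 28 libraries with a variance trend, for the 14785 genes with a strain mean above 1 FPKM, with Benjamini-Hochberg adjustment over those genes. Strains were tested one at a time against the average of the remaining 6 (adjusted p below 0.05), and in all 21 pairs. The fit was tested on simulated data. Tables and figures used Python 3.11.15, numpy 2.4.6, pandas 2.3.3 and matplotlib 3.10.9.

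All 9 members are named. From each list, values are given for at most 3 genes with the largest F and for genes a result turns on, and the most alike genes are those with the highest Pearson's r. The members and lists were chosen with earlier results of these data known. Alternatives were other scalings, pseudocounts, filters, denominators, a replicate block, library set 1 alone, the treat test, each library left out in turn and, chosen after seeing the data, the gene's own spread and the most alike genes and ratios without replicate 3 of CC-4533.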

Additional observations from a re-analysis of the deposited data

Results flagged for a closer look

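In 140 groups of 4 libraries (levels and shares of the 9 members, their sum and its percentage of all FPKM, in 7 strains), 4 held a library far from the other 3 by Dixon's ratio; at a chance rate of 1 in 20, 7 would be expected. Replicate 3 of CC-4533 was such a library for both LHCBM4 and LHCBM6: the LHCBM4 share was 2.01% against 2.72-2.83% in the other 3 libraries, and the LHCBM6 share was 4.04% against 5.07-5.22%. In replicate 3 of CC-1690 the LHCBM8 share was 1.38% against 1.32-1.33%, and in replicate 2 of CC-124 the LHCBM9 share was 0.745% against 0.766-0.770%.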

How the results depend on the processing

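The shares were stable to pseudocounts of 0.01 and 1, to no filter and to a filter at 5 FPKM: all 32 calls stayed, whereas without a filter 30 of 32 level calls did. Of the 32 share calls, 24 passed with the log2 mean of the 9 genes as the reference and 26 with the sum without LHCBM1 and LHCBM7. Within library set 1 (20 libraries of 5 strains, so fewer comparisons), 9 shares were higher and 9 lower, and LHCBM6 in CC-4532 changed sign (-0.11). Levels within set 1, over the same 5 strains, had 9 higher and 9 lower calls. The share of all genes called within set 1 was not computed.

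Levels depended on scaling. Under quantile normalization the following changed sign: LHCBM3 (-0.028), LHCBM5 (-0.0065) and LHCBM9 (-0.069) in CC-125, LHCBM2 (0.031) and LHCBM7 (0.056) in CC-1009, LHCBM1 (-0.078), LHCBM2 (-0.094) and LHCBM4 (-0.18) in CC-1690, LHCBM1 (0.013) and LHCBM6 (0.25) in CC-1691, and LHCBM2 (0.089) in CC-4532. With equal summed FPKM, LHCBM4 (-0.022) and LHCBM8 (-0.061) in CC-1690 and LHCBM6 (0.068) in CC-1691 did so. Quantile normalization gives genes of equal rank the same value in every library, so it can remove level differences of very abundant genes. Under it LHCBM1 was at 0.0131 in both CC-125 and CC-1691. The sign changes under quantile normalization therefore cannot decide whether the directions hold. The cause of the sign changes was not tested. The count of 21 passing pairs became 5 under quantile normalization, 8 with equal summed FPKM and 0 by the treat test. Within set 1 it was 13, but set 1 holds 5 strains and so fewer pairs, and 13 is not a fall from 21. Leaving out 1 library at a time, the count of passing pairs over all 7 strains ran from 13 to 27. The level calls then ran from 14 to 18 higher and 12 to 19 lower, and the share calls from 16 to 20 higher and 13 to 15 lower.

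With the replicate number as a replicate block, the calls stayed at 17 higher and 15 lower for levels and at 18 and 14 for shares. The numbers did not pair the samples: same-numbered libraries had a mean correlation of deviations of -0.00237 over 84 pairs, and 5 of 28 libraries correlated best with their own number. With each gene's own spread, an alternative chosen after seeing the data, all 32 level and 32 share calls stayed. Depth is unknown, so counting error could not be given.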
